A study of Mus musculus with 37 samples.

Results

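Mycn and the other genes of the Myc-Max network were followed in embryonic mouse hearts of stage E10.5. The 10 members, Mycn, Myc, Mycl, Max, Mxd1, Mxd3, Mxd4, Mxi1, Mga and Mnt, were taken by symbol from a table of 25239 genes, and all 10 were found and had enough counts to be among the 15046 genes tested. Mycn was chosen by its lower level in the hearts with loss of a Nipbl allele, so its values in those comparisons are given as a description with no test. The other 9 members were selected as its network, with earlier results of these data known.

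Myc proteins (encoded by Myc, Mycn and Mycl) are transcription factors that bind E-box DNA as dimers with Max and are known for driving ribosome synthesis, metabolism and cell division. Mxd1, Mxd3, Mxd4 and Mxi1, together with Mnt and the large protein Mga, also pair with Max and compete for E-boxes, mostly as repressors. In the embryonic heart Mycn is known as a factor that heart muscle cells need to multiply and to build the ventricular wall.

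Hearts came from a cross of Stra8-iCre; Nipbl Flox/+ fathers with Isl1 Cre/+ mothers. Stra8-iCre acts in the male germ line. As the study's design has it, sperm carried Nipbl Flox, a working allele, or Nipbl FIN, a null allele of this gene for the cohesin loader. Sperm of Nipbl Flox/+ fathers can also carry the + allele, which the wild_type label names. The Cre insertion in Isl1, a gene for a transcription factor of heart progenitors, leaves 1 working allele. The groups were Nipbl +/+; Isl1 +/+ (wild_type, n = 10), Isl1 +/- (Isl1_het, n = 9), Nipbl +/- (Nipbl_het, n = 9) and Nipbl +/-; Isl1 +/- (double_het, n = 9), all from dissected hearts, in which fewer cells of a type and less RNA per cell cannot be told apart. The labels do not say whether an embryo also inherited Stra8-iCre, nor whether each library is 1 embryo, so p-values measure the spread between these libraries.

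Library totals ran from 23.4 M to 51.0 M counts (median 36.2 M). Each library carries a set number in its label, whose meaning the labels do not spell out. Wild_type and Isl1_het were in sets 1, 2, 5 and 6, and Nipbl_het and double_het in sets 2, 5 and 6, apart from double_het replicate 2, the single library of set 7. That library is fitted exactly by its set term, so the fitted double_het changes rest on 8 libraries. Nipbl itself fell in Nipbl_het by 0.74 on the log2 scale (SE 0.12, edgeR adjusted p = 0.000348) and in double_het by 0.82 (SE 0.12, edgeR adjusted p = 7.19e-05). One library stood at a level against its label: the library labelled Nipbl_het replicate 2, hereafter the doubted library, had Nipbl at 72.4 CPM (counts scaled to a common library size, with TMM factors), while the other 8 Nipbl_het libraries lay at 27.1 to 44.9 CPM and wild_type at 47.6 to 78.8 CPM. Double_het replicate 2, on which no fitted change rests, had 51.6 CPM, within the wild_type range but below every Isl1_het library; the other 8 double_het libraries lay below every wild_type library. The doubted library also held the highest value of all 37 libraries in 4513 of the 15046 genes, against at most 1115 in any other library. Many of the values that it moves are therefore given with it and with it left out, but some, among them marker changes, only with it. Leaving out the doubted library, the Nipbl change in Nipbl_het was -0.88 (SE 0.069, edgeR adjusted p = 5.18e-10). Isl1 stood at 7.37 ± 2.24 CPM in wild_type (SD, n = 10) and 6.28 ± 1.76 CPM in Isl1_het (SD, n = 9), a log2 change of -0.20 (SE 0.18, edgeR adjusted p = 0.877) that does not separate these labels. In Nipbl_het it was higher than in wild_type, at 13.0 ± 2.82 CPM (SD, n = 9; change 0.79, SE 0.19, edgeR adjusted p = 0.0252). In double_het, which also carries the Isl1 allele, it stood at 9.50 ± 3.51 CPM (SD, n = 9), above the wild_type mean in 7 of 9 libraries (change 0.32, SE 0.20, edgeR adjusted p = 0.591), so its level does not check that label either. Heart muscle markers marked the tissue in every library, with 9 of 9 markers detected and a summed level of 20600 to 31300 CPM.

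Sequences before the start of Mycn, by which the network was chosen, and of the antagonists with an E-box are shown. RefSeq windows of 300 bases (GRCm38.p6, 250 before and 50 after a start) were found for 9 of the 10 members, 11 windows in all. They were searched on both strands for the E-box CACGTG, the letters that Myc-Max and Mxd-Max dimers bind, which reads the same on either strand and is held by 7.15% of all 32851 windows. They were also searched for TTTGGCGC, a form of the E2F site, held by 0.514% of them. The window of Max has its E-box across the start and is not printed. The E-box letters were in 3 windows, those of Max, Mnt and Mxd4, and the E2F letters in 1, that of Mycn, which held them at 2 places and no E-box. Capitals mark these letters in the stretch just before the Mycn gene (chr12:12941915-12942086, minus strand) and in 30 bases of the Mnt (chr11:74830789-74830818, plus strand) and Mxd4 (chr5:34187912-34187941, minus strand) windows.
Mycn: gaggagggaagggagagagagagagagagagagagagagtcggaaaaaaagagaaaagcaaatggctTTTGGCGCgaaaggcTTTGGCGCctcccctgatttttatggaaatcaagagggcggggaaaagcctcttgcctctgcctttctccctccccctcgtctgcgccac
Mnt: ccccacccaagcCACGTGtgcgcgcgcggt
Mxd4: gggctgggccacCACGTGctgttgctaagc
Such matches describe the letters only; binding was not measured.

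Mycn lies on chromosome 12 (GRCm38 12936093 to 12941914, minus strand) and was the most abundant member per length of exon. In wild_type it had 22.6 ± 2.76 CPM per kilobase (SD, n = 10), followed by Max, the shared partner, at 13.5 ± 1.22 and Myc at 8.13 ± 3.14 CPM per kilobase. Mycn lay above Max in 10 of 10 wild_type libraries, and the ranges of these neighbours did not overlap. Of the antagonists, Mxi1 (5.27 ± 0.683), Mxd3 (5.20 ± 2.00) and Mnt (5.18 ± 0.683 CPM per kilobase) had like levels, with Mxi1 above Mxd3 in only 5 of 10 libraries and Mxd3 above Mnt in 5 of 10. Mga (2.93 ± 0.689), Mxd4 (2.17 ± 0.489) and Mxd1 (1.46 ± 0.207 CPM per kilobase) followed, with overlapping ranges. Mycl was lowest at 0.576 ± 0.261 CPM per kilobase, below every Mxd1 value, and rested on 14 to 184 counts per library. Mxd3 shares exon bases with Prelid1 on the opposite strand, a gene of 8603 to 17948 counts per library, and whether counting used strand is not given in the sources used here, so its level is uncertain.

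**Figure D1:**
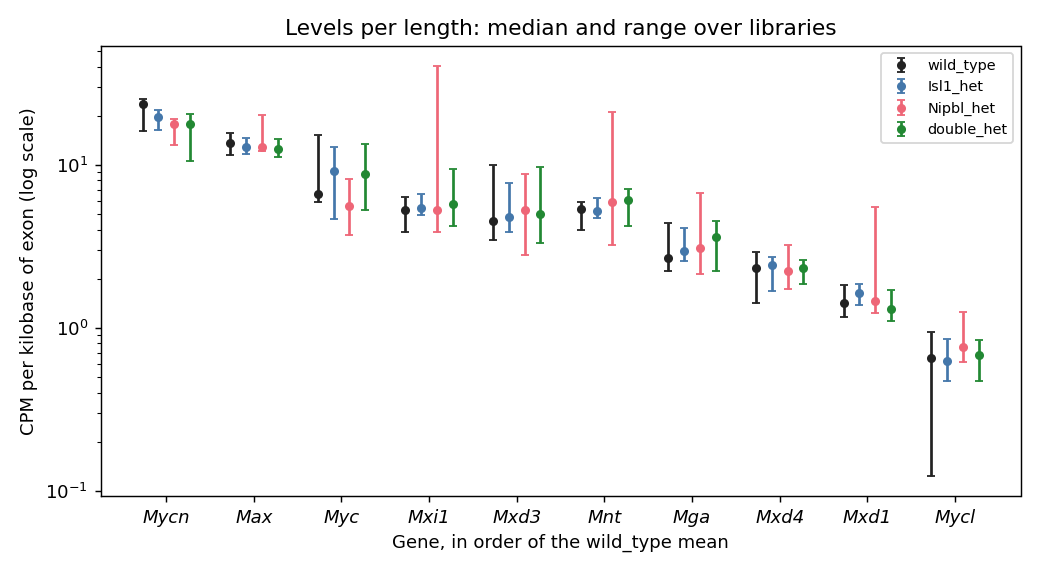
Level of each member in CPM per kilobase of exon (log axis) in the 4 genotypes; points are medians and bars run from the lowest to the highest library (n = 10 wild_type, 9 in each other group). Mycn is highest and Mycl lowest in wild_type, and the long upper bars of Mxi1, Mnt, Mxd1 and Mga in Nipbl_het come from the library labelled Nipbl_het replicate 2.

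Mycn was lower in all 3 mutant groups than in wild_type. In wild_type its level ran from 52.95 to 83.6 CPM with a median of 77.4 CPM. In Isl1_het it ran from 53.6 to 71.4 CPM (median 64.3), and in Nipbl_het from 43.8 to 63.0 CPM (median 58.9). In double_het it ran from 34.6 to 67.0 CPM with a median of 58.8 CPM. All 9 libraries of each mutant group lay below the wild_type mean of 74.6 CPM. The groups overlapped all the same. Wild_type replicate 7, at 52.95 CPM, was the wild_type library within the range of the Nipbl_het and double_het groups, and it lay just below the Isl1_het range. Wild_type replicates 8 (71.0 CPM) and 9 (68.4 CPM) lay within the Isl1_het range. Of the mutant libraries, 3 of 9 Nipbl_het and 3 of 9 double_het libraries lay below every wild_type library, and 0 of 9 Isl1_het libraries did. The doubted library, at 43.8 CPM, is among these Nipbl_het libraries, and without it Nipbl_het ran from 46.8 to 63.0 CPM.

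The change of Mycn was -0.47 on the log2 scale in Nipbl_het (SE 0.076, 0.720 of the wild_type level) and -0.50 in double_het (SE 0.080, 0.705 of it). With the library labelled Nipbl_het replicate 2 left out, these values were -0.43 (SE 0.067) and -0.53 (SE 0.068). Taken set by set, mean log2 CPM in sets 2, 5 and 6 differed from wild_type by -0.45, -0.44 (-0.32 without that library) and -0.36 for Nipbl_het and by -0.70, -0.36 and -0.41 for double_het, and in each of these sets the groups did not overlap with wild_type, although set 6 held 1 double_het library. Wild_type had only 3, 2 and 2 libraries in these sets, and the share of all genes without overlap is not given here. Against Isl1_het, double_het stood at -0.23 (SE 0.079). Within sets 2, 5 and 6 this difference was -0.45, -0.21 and -0.26, with overlap of the groups in set 5 and 1 library of each in set 6. These comparisons turn on the Nipbl allele, by which Mycn was chosen, and no test is attached to them.

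**Figure D2:**
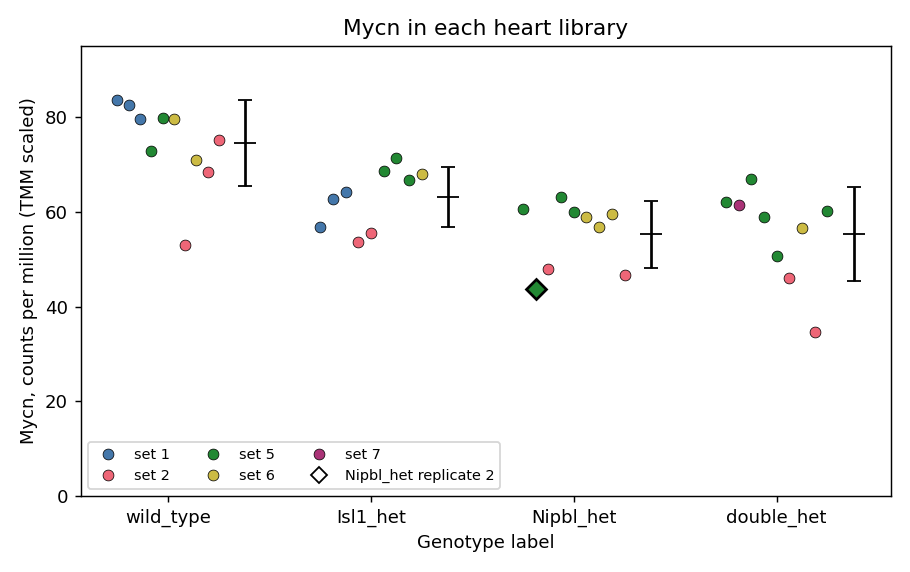
Mycn in CPM (TMM scaled) in each of the 37 libraries by genotype label; colours give the set number, the diamond is the library labelled Nipbl_het replicate 2, and the bar beside each group is the mean ± SD (n = 10, 9, 9 and 9). All 9 libraries of each mutant group lie below the wild_type mean of 74.6 CPM, and wild_type replicate 7, of set 2, is the wild_type library that lies within the ranges of both Nipbl groups, at 52.95 CPM.

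The comparisons of the Isl1 allele were not used to choose Mycn, but they share libraries with the comparisons that were. Isl1_het against wild_type holds the same wild_type libraries. Double_het against Nipbl_het and the averaged Isl1 effect hold the Nipbl groups by which Mycn was chosen. The adjusted p-values of Mycn in this paragraph and the next are therefore not free of that choice. Mycn in Isl1_het was lower by 0.27 on the log2 scale than in wild_type (change -0.27, SE 0.071, 95% interval -0.417 to -0.126), in 9 of 9 libraries, but among all genes this did not pass the threshold of 0.05 (edgeR quasi-likelihood test, Benjamini-Hochberg adjusted p = 0.306). No gene passed in that comparison (0% of 15046; 886 at an unadjusted p under 0.05, and 11 with DESeq2). Within sets 1, 2, 5 and 6 the difference was -0.42, -0.25, -0.15 and -0.15, with overlap of the groups in set 2. Leaving out the doubted library gave -0.29 (edgeR adjusted p = 0.119), and with DESeq2 the adjusted p was 0.0955.

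Between double_het and Nipbl_het, Mycn differed by -0.03 (SE 0.077, 95% interval -0.186 to 0.126, edgeR adjusted p = 0.935). With the doubted library left out the difference was -0.10 (SE 0.068, edgeR adjusted p = 0.739). The interaction, the double_het change minus both single changes, was 0.24 (SE 0.10), and 0.19 (SE 0.090) without the doubted library. It contains the Nipbl_het change on which Mycn was chosen and is given with no test. Of all genes, 0% passed in either comparison (1355 and 411 at an unadjusted p under 0.05; DESeq2 also gave 0). Averaged over the Nipbl genotypes, the Isl1 allele came with a change of -0.15 (SE 0.053, edgeR adjusted p = 0.270), and with -0.19 and an adjusted p of 0.0537 without the doubted library.

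Mycn also moved with the set number. Since the sets hold the genotypes in unequal shares, set means were taken within a genotype. In wild_type the mean was 81.9 CPM in set 1 (n = 3), 65.5 in set 2 (n = 3), 76.3 in set 5 (n = 2) and 75.3 in set 6 (n = 2), and in Isl1_het 61.3, 54.6, 68.9 and 68.0 CPM (n = 3, 2, 3 and 1). In sets 2, 5 and 6 it was 47.4, 56.9 and 58.4 CPM in Nipbl_het (61.2 in set 5 without the doubted library) and 40.3, 59.7 and 56.6 CPM in double_het. Set 2 thus had the lowest mean in each of the 4 genotypes, and the set term, fitted beside genotype, passed the threshold (edgeR adjusted p = 0.00159). Of the 10 members, 5 passed for the set number (Mycn, Myc, Mxd3, Mxd4 and Mga), where 38.2% of all genes did. Wild_type replicate 7, a set 2 library, had the lowest Mycn of its group together with the highest Myc (41.5 CPM) and the highest Mxd3 (23.7 CPM) of all 37 libraries.

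Markers of heart cell types moved with the groups beside Mycn. The 6 ventricular muscle markers summed to 11500 to 17700 CPM in wild_type (median 15000), 10400 to 15100 in Isl1_het, 10600 to 14000 in Nipbl_het (13300 at most without the doubted library) and 9650 to 15700 in double_het. All 6 had negative changes in both Nipbl groups, of which Irx4, a ventricular transcription factor, passed in Nipbl_het (-0.47, SE 0.12, edgeR adjusted p = 0.0326) and Irx4 and Hey2 in double_het. Without the doubted library Irx4 (-0.38, SE 0.091, edgeR adjusted p = 0.0152) and Hey2 (-0.33, SE 0.086, edgeR adjusted p = 0.0277) passed in Nipbl_het. The 7 epicardial markers summed to 261 to 463 CPM in wild_type, 307 to 553 in Isl1_het, 407 to 614 in Nipbl_het and 519 to 674 in double_het, so that double_het did not overlap with wild_type. Of these 7, Wt1 rose in Nipbl_het, by 0.31 (SE 0.072, edgeR adjusted p = 0.0178), and 5 rose in double_het: Wt1 by 0.53 (SE 0.076, edgeR adjusted p = 6.05e-05), Upk3b by 0.72, Sema3d by 0.73, Tbx18 by 0.38 and Upk1b by 0.38. In other lists, Sox3 of neural progenitors fell by 0.97 in Nipbl_het (SE 0.13, edgeR adjusted p = 7.34e-05) and by 0.81 in double_het (SE 0.14, edgeR adjusted p = 0.000459), Pax6 of the same list rose by 0.93 in Nipbl_het (SE 0.23, edgeR adjusted p = 0.0231), and Pdgfra of cushion mesenchyme rose by 0.43 in double_het (SE 0.12, edgeR adjusted p = 0.0483). Of the 6 second heart field and outflow markers, 2 rose in Nipbl_het, Isl1 and Tbx1 (1.38, SE 0.35, edgeR adjusted p = 0.0322). In double_het 1 rose, Tbx1 (1.37, SE 0.37, edgeR adjusted p = 0.0348). The others went both ways in double_het and did not pass: Fgf10 (-0.58), Fgf8 (-0.29) and Wnt11 (-0.20) lay below 0, and Isl1 (0.32) and Rgs5 (0.84) above. Without the doubted library Fgf10 passed as lower in double_het, as given below. Sln, an atrial calcium pump regulator, rose by 1.84 in Nipbl_het (SE 0.40, edgeR adjusted p = 0.0109) and by 2.23 in double_het (SE 0.42, edgeR adjusted p = 0.00168), at 1.95 and 2.12 without the doubted library. Angpt1 of the same list stood at -0.32 in double_het (SE 0.099, edgeR adjusted p = 0.0778), and the 6 atrial markers summed to 528 to 912 CPM in wild_type, 480 to 963 in Nipbl_het (602 at least without the doubted library) and 586 to 1110 in double_het. The 7 erythroid markers ranged from 511 to 106000 CPM over the libraries with overlap of all groups, and the 511 CPM is the doubted library (1460 at least in the other Nipbl_het libraries). The 5 neural progenitor markers summed to 79.1 CPM in the doubted library and to 222 to 436 CPM in all others. Of the defining markers, Sln of atrial muscle, Ptprc of macrophages and Afp of liver were at 0 in some wild_type library, and Alb of liver was at 0 in some library of every group. The 6 liver and foregut endoderm markers summed to at most 15.8 CPM in wild_type, 18.8 in Isl1_het and 23.5 in double_het. In Nipbl_het they had a median of 2.35 CPM but reached 358 CPM, in a library other than the doubted one. Afp stood at 4.84 in Nipbl_het (SE 1.64, edgeR adjusted p = 0.129). In double_het against Isl1_het, Wt1 was higher by 0.54 (SE 0.076, edgeR adjusted p = 9.53e-05) and Sox3 fell by 0.69 (SE 0.14, edgeR adjusted p = 0.00882). The part of these markers in the Mycn values was not tested.

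Among the other 9 members, 0 passed the threshold in any of the 8 comparisons with all 37 libraries. The comparisons were each mutant group against wild_type, double_het against each single heterozygote, the interaction, and the Nipbl and Isl1 effects averaged over the other gene. With the 3 comparisons in which Mycn was tested this made 75 tests, with a lowest adjusted p of 0.214 and 8 at an unadjusted p under 0.05. Of all genes, 1.71% passed in Nipbl_het against wild_type, 2.6% in double_het against wild_type, 0.957% in double_het against Isl1_het, 4.02% for the averaged Nipbl effect and 0.173% for the averaged Isl1 effect. A count of 0 of 9 lies close to these shares and is no result about the members. DESeq2 also called 0 of them.

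**Figure D3:**
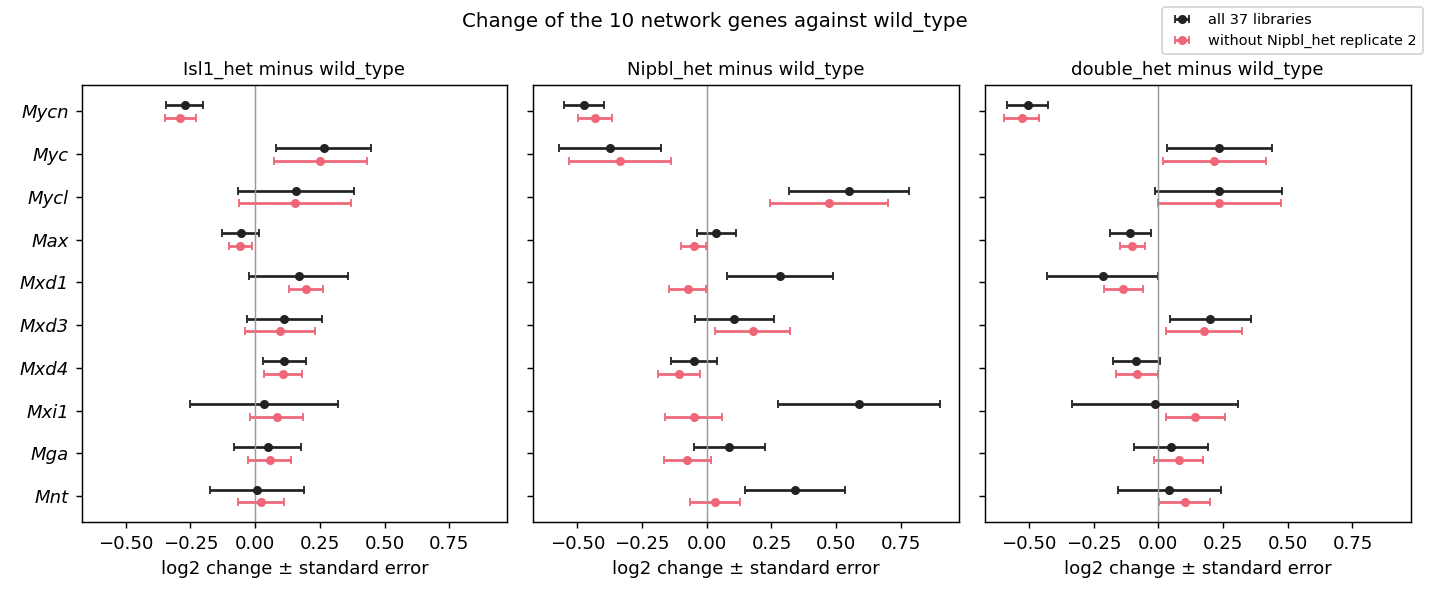
Change of each member against wild_type on the log2 scale, with its standard error, for Isl1_het, Nipbl_het and double_het; black points use all 37 libraries and red points leave out the library labelled Nipbl_het replicate 2. Mycn lies below 0 in all 3 panels, while Mxi1 in Nipbl_het goes from 0.59 to -0.05 when that library is left out.

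Myc, on chromosome 15, is the member that many dividing cells use. It ran from 16.0 to 41.5 CPM in wild_type (median 17.8), 12.7 to 34.8 in Isl1_het (median 24.8), 10.1 to 22.4 in Nipbl_het (median 15.1) and 14.4 to 36.6 in double_het (median 23.9). The groups overlapped broadly, with 5 of 9 Nipbl_het libraries below every wild_type library and 5 of 9 double_het libraries above every Nipbl_het library. The change was -0.37 in Nipbl_het (SE 0.20, edgeR adjusted p = 0.368; -0.34 without the doubted library, which had the lowest value of 10.1 CPM) and 0.61 between double_het and Nipbl_het (SE 0.20, edgeR adjusted p = 0.413). Without the doubted library the latter was 0.55 (SE 0.20, edgeR adjusted p = 0.564). The averaged Isl1 effect on Myc, 0.44 (SE 0.14, 95% interval 0.163 to 0.713), had the lowest adjusted p of the 75 tests, 0.214 (0.163 without the doubted library, where the change was 0.40).

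Mycl, on chromosome 4, the third Myc gene, had the fewest counts of the 10. It ran from 0.499 to 3.78 CPM in wild_type and from 2.48 to 5.03 CPM in Nipbl_het, where 9 of 9 libraries lay above the wild_type mean of 2.32 CPM. The 5.03 CPM belonged to the doubted library. The change was 0.55 (SE 0.23, edgeR adjusted p = 0.248), or 0.47 (SE 0.23, edgeR adjusted p = 0.327) without it, and within sets 2, 5 and 6 it was 1.49, 0.62 (0.46 without the doubted library) and -0.26, so the direction was not shared by all sets. In double_het Mycl ran from 1.91 to 3.39 CPM with a change of 0.23 (SE 0.25, edgeR adjusted p = 0.792).

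Max, on chromosome 12, is the shared dimer partner. It ran from 41.4 to 56.0 CPM in wild_type, 41.8 to 52.8 in Isl1_het, 43.7 to 72.3 in Nipbl_het and 40.2 to 51.7 in double_het. The 72.3 CPM belonged to the library labelled Nipbl_het replicate 2, and the next highest Nipbl_het library stood at 52.7 CPM. In double_het the change was -0.11 (SE 0.079, 95% interval -0.269 to 0.0527, edgeR adjusted p = 0.670). In Nipbl_het it was 0.04 (SE 0.076, edgeR adjusted p = 0.854), and -0.05 (SE 0.047) without that library.

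Mxd1, on chromosome 6, a Max partner linked to cells that stop dividing, was the member whose call turned on the doubted library. It ran from 8.20 to 12.9 CPM in wild_type (median 9.98), from 9.68 to 13.1 CPM in Isl1_het (median 11.6) and from 7.77 to 12.0 CPM in double_het (median 9.24). In Nipbl_het 8 libraries lay at 8.68 to 11.0 CPM and the library labelled Nipbl_het replicate 2 at 38.7 CPM. Of the 9 double_het libraries, 6 lay below every Isl1_het library, and 8 below the Isl1_het mean.

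With all 37 libraries the change of Mxd1 between double_het and Isl1_het was -0.38 (SE 0.22, edgeR adjusted p = 0.804). That fit draws its spread and its set 5 estimate partly from the library labelled Nipbl_het replicate 2, although neither group holds it. With it left out Mxd1 fell by 0.33 (SE 0.074, edgeR adjusted p = 0.00934), where 2.4% of all genes passed. In the same comparison and libraries Wt1 was higher by 0.54 (SE 0.074, edgeR adjusted p = 4.07e-05) and Sox3 fell by 0.70 (SE 0.12, edgeR adjusted p = 0.000721), and their part in the Mxd1 value was not tested. The averaged Nipbl effect on Mxd1 was then -0.20 (SE 0.054, edgeR adjusted p = 0.0161), where 6.93% of all genes passed, against -0.05 (SE 0.16, edgeR adjusted p = 0.934) with all libraries. This effect averages the double_het change just given with that of Nipbl_het against wild_type, so it is not a separate result. Nipbl_het against wild_type stood at -0.07 (SE 0.072, edgeR adjusted p = 0.726), and at 0.28 (SE 0.205, edgeR adjusted p = 0.533) with all libraries. In sets 2, 5 and 6 it was -0.05, 0.18 and -0.31 without the doubted library, so the direction was not shared. Within sets 2, 5 and 6 the difference between double_het and Isl1_het was -0.67, -0.22 and -0.12, without overlap, from 1 library of each group in set 6. The share of all genes without overlap in these small groups is not given here. Against wild_type, Mxd1 in double_het was at -0.13 (SE 0.074, edgeR adjusted p = 0.320) without that library, since Isl1_het lay above wild_type by 0.20 (SE 0.066, edgeR adjusted p = 0.327). Without that library the other 8 members passed in none of the 8 comparisons, where 0.0133% of all genes passed in Isl1_het, 2.72% in Nipbl_het, 5.57% in double_het and 0.372% for the averaged Isl1 effect.

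Mxi1, on chromosome 19, a Max interactor and antagonist of Myc, had 1 library far above all others. In wild_type it ran from 26.3 to 43.5 CPM, in Isl1_het from 33.3 to 45.0 and in double_het from 28.8 to 64.0 CPM. In Nipbl_het 8 libraries lay at 26.4 to 40.9 CPM and the library labelled Nipbl_het replicate 2 at 273.6 CPM, from 10017 counts. The Nipbl_het change was 0.59 (SE 0.31, edgeR adjusted p = 0.378) with that library and -0.05 (SE 0.11, edgeR adjusted p = 0.908) without it.

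The library labelled Nipbl_het replicate 2 stood at an end of the range for 8 of the 10 members. Among all 15046 genes tested it was the highest of 37 in 30% and the lowest in 27.7%. The count of 8 is therefore no result about the members. This library was the highest of 37 for Mxi1, Mxd1, Mnt, Mga, Mycl and Max, at 7.41, 3.83, 3.74, 2.27, 1.82 and 1.58 times the median of the other 36 libraries. It was the lowest of 37 for Myc, at 0.497 times that median, and for Mxd3, at 0.568 times. For Mycn it was second lowest at 43.8 CPM, and for Mxd4 second highest at 25.5 CPM. Of the 6 antagonists it was thus highest for Mxi1, Mxd1, Mnt and Mga but lowest for Mxd3. These are values of 1 library and describe no genotype.

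**Figure D4:**
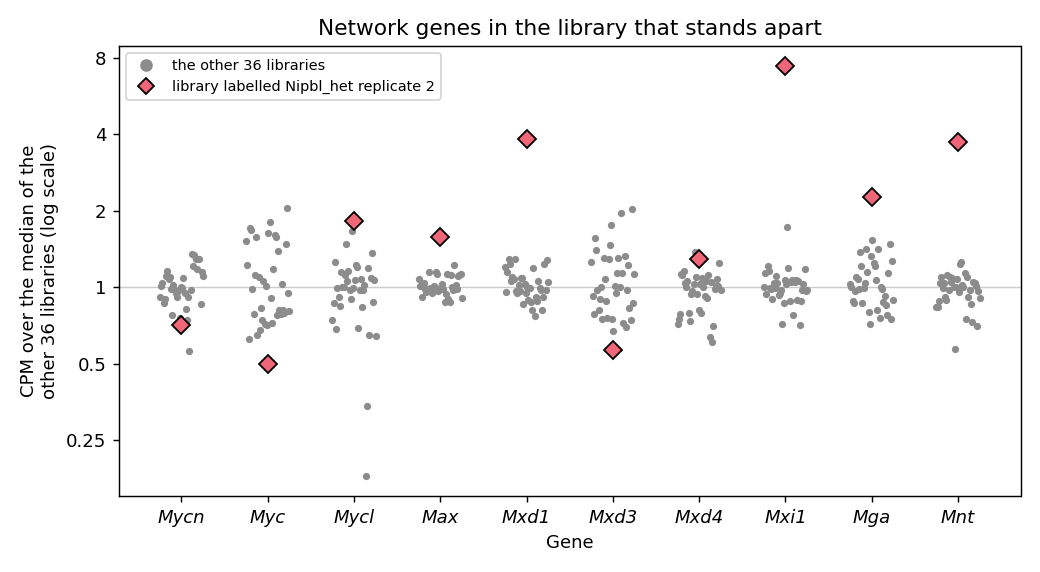
Level of each member in every library, as CPM over the median of the other 36 libraries (log axis); grey points are those 36 libraries and the red diamond is the library labelled Nipbl_het replicate 2. Its Mxi1 lies at 7.41, its Mxd1 at 3.83 and its Mnt at 3.74 times the median, and its Myc at 0.497 times.

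Mnt, on chromosome 11, a broadly expressed antagonist whose E-box window is shown above, ran from 18.4 to 27.5 CPM in wild_type, 21.9 to 28.7 in Isl1_het, 19.5 to 32.8 in double_het and 14.9 to 97.8 in Nipbl_het (14.9 to 29.3 without the doubted library). In double_het 5 of 9 libraries lay above every wild_type library and 8 of 9 above the wild_type mean, with a fitted change of 0.04 (SE 0.20, edgeR adjusted p = 0.965), or 0.10 (SE 0.098, edgeR adjusted p = 0.595) without the doubted library. In Nipbl_het the change of Mnt was 0.34 (SE 0.19, edgeR adjusted p = 0.408), or 0.03 (SE 0.095, edgeR adjusted p = 0.935) without it. Mga, on chromosome 2, the scaffold of a Polycomb-type repressor complex, ran from 34.0 to 66.9 CPM in wild_type and from 34.2 to 69.5 CPM in double_het, where its change was 0.05 (SE 0.14, edgeR adjusted p = 0.945). In Nipbl_het the change of Mga was 0.09 (SE 0.14, edgeR adjusted p = 0.801), or -0.08 (SE 0.091, edgeR adjusted p = 0.795) without the doubted library. Mxd4, on chromosome 5, and Mxd3, on chromosome 13, which is known from dividing cells, had changes between -0.20 and 0.20 in the comparisons between groups. Mxd4 stood at -0.20 in double_het against Isl1_het (SE 0.093, edgeR adjusted p = 0.602) and at -0.12 for the averaged Nipbl effect (SE 0.067, edgeR adjusted p = 0.410; 0.145 without the doubted library). Mxd3, subject to the overlap with Prelid1, ran from 6.64 to 23.7 CPM over the 37 libraries and was highest in wild_type replicate 7 and double_het replicate 8, both of set 2.

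The balance within the family was described per length of exon. Mycn made up 72.5 ± 8.87% of the summed Mycn, Myc and Mycl level in wild_type (SD, n = 10), 66.1 ± 8.60% in Isl1_het, 70.9 ± 5.84% in Nipbl_het and 63.7 ± 9.94% in double_het (SD, n = 9 each). The sum of these Myc genes over the sum of Mxd1, Mxd3, Mxd4, Mxi1, Mnt and Mga was 1.43 ± 0.233 in wild_type, 1.26 ± 0.101 in Isl1_het, 0.963 ± 0.285 in Nipbl_het and 1.09 ± 0.152 in double_het. These means do not account for the set number. The 3 wild_type libraries of set 1 had 1.80, 1.59 and 1.78, and the highest wild_type value in the other sets was 1.53. Set 1 held no Nipbl_het or double_het library. Without the doubted library Nipbl_het stood at 1.05 ± 0.0798 (SD, n = 8), with a highest value of 1.17, below the lowest wild_type value of 1.21. In double_het the ratio ran from 0.929 to 1.40 and overlapped with wild_type. Mycn carries most of this ratio and was chosen for its fall, so these values are a description only.

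Genes that act with or downstream of the network were read from 10 lists of 123 genes, written with earlier results of these data known. The list sizes given below add up to more than 123, as a gene may stand in more than 1 list. All 123 had enough counts to be tested. With all 37 libraries 2 of 123 (1.63%) passed in Nipbl_het against wild_type, both lower, and 2 of 123 (1.63%) in double_het, both lower, next to 1.71% and 2.6% of all genes. In double_het against Isl1_het, in Isl1_het against wild_type, and in the interaction 0 of 123 passed. For the averaged Nipbl effect 1 of 123 (0.813%) passed, next to 4.02% of all genes. The genes in Nipbl_het and double_het were Hspd1, a mitochondrial chaperonin and Myc target, Ncl, the nucleolar protein nucleolin, and Cbx3, a heterochromatin protein of the Mga complex. Hspd1 fell by 0.25 in Nipbl_het (SE 0.058, edgeR adjusted p = 0.0158) and by 0.26 in double_het (SE 0.060, edgeR adjusted p = 0.0097). Ncl fell by 0.29 in Nipbl_het (SE 0.078, edgeR adjusted p = 0.0439), and Cbx3 fell by 0.25 in double_het (SE 0.068, edgeR adjusted p = 0.0364). These calls depend on which sets are in the fit. With any 1 of sets 1, 2, 5 or 6 left out, 0 list genes passed in Nipbl_het. With set 2 or set 5 left out, 0 passed in double_het. Calls over all genes also fell in these smaller fits, from 258 to 118, 31, 124 and 175 in Nipbl_het. In double_het they fell from 391 to 113 without set 2 and to 67 without set 5.

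Among the 19 Myc targets of ribosome synthesis, which include Ncl, Npm1, Fbl and Nop56, 1 fell in Nipbl_het and 0 in double_het. Their median change was -0.20 in Nipbl_het, with 18 of 19 values below 0 (-0.15 without the doubted library), and -0.14 in double_het, with 19 of 19 below 0. The median over all genes was 0.01 and -0.002 in these comparisons. In Isl1_het the median of the list was -0.12 with 17 of 19 values below 0, and 0 passed. These comparisons have the wild_type libraries in common, so each is given as its own value. In double_het against Isl1_het, which has no wild_type library but shares the double_het ones, the median was -0.03 with 13 of 19 below 0.

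Of the 20 targets of metabolism and growth, 1 fell in each of Nipbl_het and double_het (Hspd1), with medians of -0.07 and -0.13 (-0.13 and -0.11 without the doubted library). Of the 14 cell-cycle targets, 0 passed in either, with medians of -0.16 and -0.03 (-0.11 and -0.05 without it, when Ccne1 passed in double_het). The 8 genes that Myc is known to repress had a median of 0.35 in Nipbl_het with 7 of 8 above 0, and 0 passed. Without the doubted library that median was 0.03 with 5 of 8 above 0. Ndrg1, a stress-responsive gene of this list named here after its values were seen, went from 2.56 (SE 0.95, edgeR adjusted p = 0.173) to -0.28 (SE 0.26, edgeR adjusted p = 0.715).

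Other lists held few or no calls. Of the 10 corepressor genes of Mxd and Mnt, such as Sin3a and Hdac1, 0 passed in Nipbl_het or double_het, and the same held for the 14 Myc coactivators and partners, the 9 genes of Myc protein turnover, the 3 genes of the Mlx arm and the 16 signals and factors of heart muscle growth. Of the 12 partners of Mga, 1 (Cbx3) fell in double_het.

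With the library labelled Nipbl_het replicate 2 left out, 4 of 123 genes (3.25%) fell in Nipbl_het and 9 of 123 (7.32%) in double_het, next to 2.72% and 5.57% of all genes. In double_het against Isl1_het 0 of 123 passed, next to 2.4% of all genes. For the averaged Nipbl effect 4 of 123 (3.25%) passed, next to 6.93% of all genes. Hspd1 fell by 0.21 (edgeR adjusted p = 0.0121) in Nipbl_het and 0.29 (edgeR adjusted p = 0.0004) in double_het, and Ncl by 0.31 (edgeR adjusted p = 0.0208) and 0.27 (edgeR adjusted p = 0.0346). Cbx3 fell by 0.25 (edgeR adjusted p = 0.0293) and 0.26 (edgeR adjusted p = 0.0135). In double_het Shmt1, an enzyme of folate metabolism (-0.34, SE 0.063, edgeR adjusted p = 0.00103), Srm, which makes spermidine (-0.28, SE 0.075), Nop2, a ribosomal RNA methyltransferase (-0.19, SE 0.047), Ccne1, a cyclin of cell-cycle entry (-0.23, SE 0.067), and Fgf10, a growth factor of heart progenitors (-0.51, SE 0.16), passed as well. Gadd45b, a stress gene listed as repressed by Myc, fell in both groups, by 0.39 (edgeR adjusted p = 0.0177) and 0.43 (edgeR adjusted p = 0.00582), which is against the name of its list. With all libraries its Nipbl_het change was 0.42 (SE 0.35, edgeR adjusted p = 0.594).

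**Figure D5:**
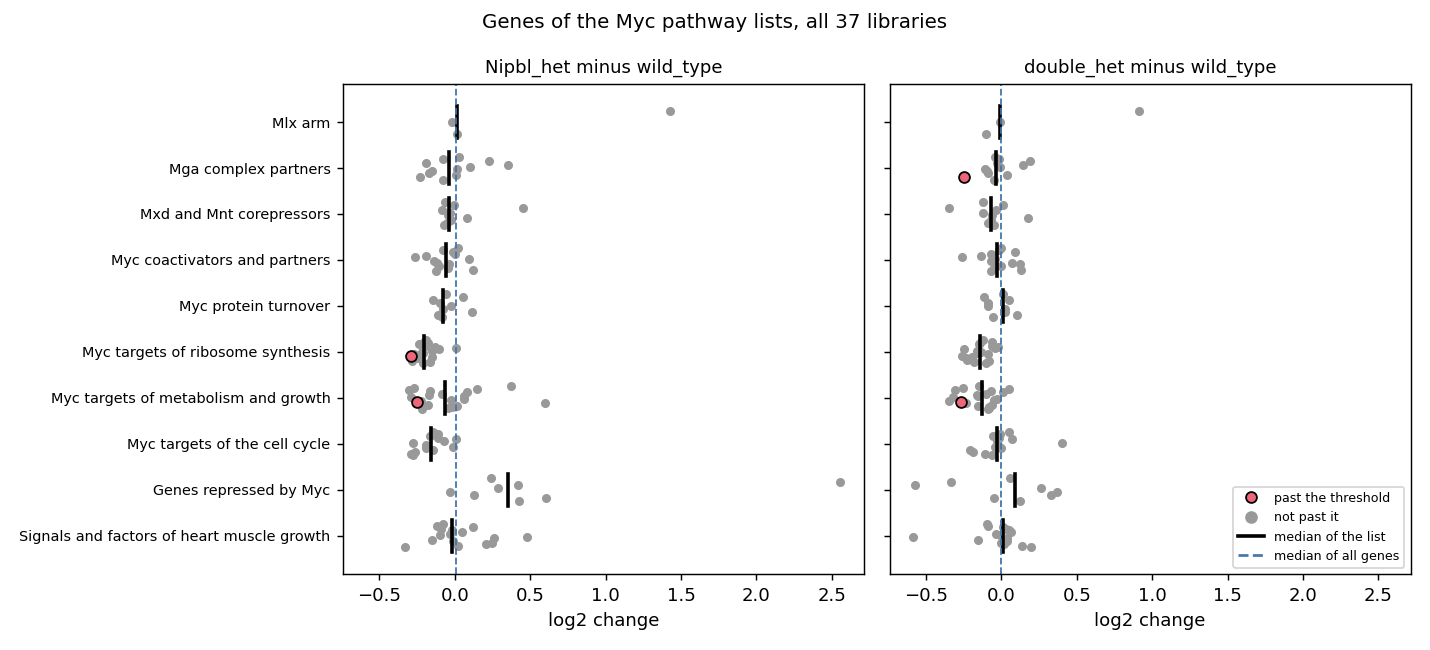
Change on the log2 scale of each gene of the 10 lists in Nipbl_het and in double_het against wild_type, all 37 libraries; red points passed the threshold, grey points did not, the black bar is the median of a list and the dashed line the median of all genes. The ribosome synthesis list has medians of -0.20 and -0.14, and the point at 2.56 in Nipbl_het is Ndrg1.

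The genes most like Mycn were sought by Pearson r of log2 CPM after set means were subtracted, over 36 libraries and 11486 genes that are not on X or Y. Genotype was not removed, so these values include the difference between groups, and the libraries share their depth scaling. The highest were Lpar3, a lysophosphatidic acid receptor (r = 0.83), Mylk3, the myosin light chain kinase of heart muscle (0.79), Hspa2, a heat shock protein (0.78), Alcam, a cell adhesion protein (0.78), and Fam185a (0.77). The lowest were Neurl3 (r = -0.82), Dap (-0.78) and the amino acid transporter Slc7a7 (-0.77). Nipbl stood at 0.49 over all libraries and at 0.66 without the doubted library. The other 9 members lay from -0.43 for Mycl to 0.01 for Myc over all libraries and from -0.50 for Mxd3 to 0.30 for Max without the doubted one. Leaving it out turned the sign for Max (from -0.14), Mxd1 (from -0.21 to 0.29) and Mxi1 (from -0.31 to 0.10), among others.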

How the data were processed

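Mouse E10.5 hearts were measured by bulk paired-end RNA sequencing (NEB Monarch RNA extraction and NEBNext Ultra II libraries, per the labels' protocols). The authors deposited raw read counts per gene symbol for 37 libraries. STAR, featureCounts, GRCm38 and mm10 are named per the submitters' processing notes; the annotation and strand setting are not given in the sources used here. Of 25239 rows, 24321 matched GENCODE M21, used for exon lengths and positions, and 4273 were 0 throughout.

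Genes were filtered with filterByExpr by genotype (minimum count 10, total 15), scaled by TMM and fitted with edgeR 4.0.16 (R 4.3.3, limma 3.58.1) in 1 quasi-likelihood model of genotype and set number. Tests were two-sided with Benjamini-Hochberg adjustment over all genes per comparison and a threshold of 0.05. Standard errors came from the F statistic, and the common biological coefficient of variation was 0.209. CPM are TMM-scaled, and log2 CPM used a prior count of 2. Motifs were searched in RefSeq windows. The model was run on data simulated without set differences and without a library that stands apart. That run therefore does not cover these 2 features of the data. Libraries of 1 genotype differed by more than sampling noise in all 153 pairs (smallest chi-square per degree of freedom 7.36).

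The members and lists were chosen with earlier results of these data known. The text names all members, Nipbl and Isl1, list genes past the threshold (at most 4 per list, comparison and direction, by smallest p), and the 5 highest and 3 lowest genes by r with Mycn (mean log2 CPM of at least 1); Ndrg1 was added later, as were markers, not all of which are reported here. Alternatives were no set term, the title's replicate number in place of the set, DESeq2 1.42.0, DESeq2-style size factors, no filter, at least 10 counts in every library, and leaving out each set (1, 2, 5 and 6) and each library. Figures used Python 3.11.15 and matplotlib 3.10.9.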

Additional observations from a re-analysis of the deposited data

Results flagged for a closer look

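Of 40 groups (10 members in 4 genotypes), 10 held a library that lay apart from the rest by the ratio of its gap to the group's range; chance gives about 1 in 20 groups. The library labelled Nipbl_het replicate 2 was apart on the high side for Max (72.34 CPM), Mxd1 (38.72 CPM), Mxi1 (273.6 CPM), Mga (102.5 CPM) and Mnt (97.8 CPM), and its Nipbl level went against its label. Wild_type replicate 7 was apart with low Mycn (52.95 CPM) and high Mxd3 (23.74 CPM). Double_het replicate 8, of set 2 as well, had high Mxd3 (23.03 CPM). Double_het replicate 3 had high Mxi1 (64.04 CPM), and Isl1_het replicate 9 had high Mga (62.41 CPM). The causes were not tested.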

How the results depend on the processing

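Mycn was below wild_type under all 47 alternatives, from -0.519 to -0.427 in Nipbl_het and from -0.627 to -0.432 in double_het, and never moved by more than the SD within genotypes (0.214). Leaving out single libraries gave -0.505 to -0.431 in Nipbl_het, -0.538 to -0.452 in double_het and -0.265 to -0.183 for double_het against Isl1_het. Of 3525 tested member values, 3335 kept direction and side of the threshold, 187 changed sign while under it in both, and 3 passed newly, all Mxd1: without Nipbl_het replicate 2 (counts of members 0 to 1 over the libraries left out, for double_het against Isl1_het and the averaged Nipbl effect) and, for the latter, without set 5, which holds that library (1 member, -0.336, adjusted p = 0.0327). List genes past the threshold in Nipbl_het (2) became 6 with no set term, 4 with DESeq2, 1 with no filter and 0 without set 1, 2, 5 or 6, and 1 to 4 without single libraries (4 without wild_type replicate 5 or Nipbl_het replicate 2). In double_het (2) they became 4 with no set term, 1 with no filter or without set 1, 0 without set 2 or 5, and 1 to 9 without single libraries (9 without Nipbl_het replicate 2). For the averaged Nipbl effect (1) they became 7 with no set term, 3 with DESeq2, 2 with its size factors, 0 without set 2 or 5, and 1 to 4 without single libraries (the same 2 libraries giving 4). For the averaged Isl1 effect (0) DESeq2 gave 2, and leaving out single libraries gave 0 to 3 (3 without wild_type replicate 7, 1 without Nipbl_het replicate 2). Over all genes, 258 calls in Nipbl_het became 467 with no set term, 459 with DESeq2, 118, 31 and 124 without sets 1, 2 and 5, and 167 to 410 without single libraries; 391 in double_het became 610 with the replicate block, 235, 113, 67 and 223 without sets 1, 2, 5 and 6, and 244 to 839; 144 in double_het against Isl1_het became 234 with DESeq2, 74, 22, 12 and 80 without these sets, and 73 to 361. The highest of each of these ranges was without Nipbl_het replicate 2. The averaged Nipbl effect (605) became 1045 with no set term, 993 with the replicate block, 152, 275 and 401 without sets 2, 5 and 6, and 436 to 1044 without single libraries (1044 without Nipbl_het replicate 2). The averaged Isl1 effect (26) became 115 with DESeq2, 9 with the replicate block, 0 with no set term or without set 1, 2 or 5, 7 without set 6, and 4 to 73 without single libraries (73 without wild_type replicate 7). The causes were not tested. By CPM without length, Mga ranked 3 instead of 7 and Myc 6 instead of 3.

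With a replicate block from the titles in place of the set number, list genes past the threshold were 5 in Nipbl_het, 5 in double_het and 8 for the averaged Nipbl effect, and no member's call changed. The numbers share only a label: 54 same-number pairs had a median correlation of 0.0279, 17 were over 0.1, and 3 libraries correlated best with their own number. Depth limits Mycl (14 to 184 counts).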
